A study of Mus musculus with 12 samples.

Results

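The genes Runx1, Runx2, Tead1, Tead2, Tead3, Tead4, Cebpa and Cebpb encode transcription factors of the RUNX, TEAD and CEBP families, and their loci were taken as each gene body plus 20 kb on either side. The peaks of 4 accessibility peak lists were merged into 273256 intervals, and the 242 intervals that overlapped the 8 loci are described here. The assay was Omni-ATAC-seq, in which a transposase inserts sequencing adapters into open DNA. It was run on 12 libraries of 50000 cells each, with 3 libraries in each of 4 groups. The cells were passage 2 mouse embryonic fibroblasts (MEFs) from E12.5 embryos, labelled as strain 129. Per the study's methods the embryos were chimeras made by morula aggregation, in which the transgenic cells carried Cas9 and a doxycycline-inducible cassette for MYC, KLF4, OCT4 and SOX2 with an mOrange reporter. The MEF libraries, made without doxycycline and so not gated on mOrange, may thus also hold cells of the host embryo, which come from another strain and lack both. Control cells received a non-targeting guide RNA and KO cells a guide RNA against Zfp266, a zinc finger protein gene. MEF control and MEF KO cells stayed in fibroblast medium. Reprogramming control and reprogramming KO cells received doxycycline (300 ng/ml) and vitamin C (10 µg/ml) for the last 72 of the 96 h between transduction and harvest and were sorted as mOrange+ cells. They are called 72 h control and 72 h KO below. KO names the guide that a transduced population received, and accessibility does not measure how many cells lost the protein. The methods also give the reprogramming cultures, but not the MEF cultures, as seeded with an excess of wild-type MEFs. MEFs and 72 h cells thus differed in co-culture, medium, sort gate and doxycycline, which cannot be told apart from the action of the factors.

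RUNX proteins bind DNA together with the partner CBFB: RUNX1 is best known as a master factor of blood stem cell formation and RUNX2 as the master factor of bone-forming cells. TEAD proteins bind DNA and recruit YAP and TAZ, the effectors of the Hippo pathway that senses cell density and stiffness. CEBPA and CEBPB are leucine zipper factors of fat, liver and myeloid cells. Binding motifs of the 3 families, next to those of AP-1, are common in open chromatin of fibroblasts, and such elements are known to close when OCT4, SOX2, KLF4 and MYC are expressed. RUNX1 and RUNX2 are each transcribed from a distal and a proximal promoter.

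The fold of a peak is the enrichment over background that the peak caller MACS2 gave for the whole broad peak, so a wide peak tends to have a lower fold than a narrow one. There was 1 peak list per group, from its 3 libraries merged, so folds have no replicate error and no test was possible on them. An interval takes the highest fold of the group's peaks in it. It is called lower or higher where the folds of 2 groups differed by at least 1.5-fold, or where 1 group had no peak, with a fold of at least 3 in the group with more. An interval without a peak was under the threshold of the caller, which does not show that it was closed. Fewer open cells and a smaller opening in each cell cannot be told apart in such libraries.

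The sequences below come from the intervals that headed a class at the RUNX loci and from the 1 listed interval. For Runx1 and Runx2 they are the middle 300 bases of the interval with the highest fold among those with a peak in MEF control and none in 72 h control (MEF-only), and of the one with the highest fold in the opposite class (72 h-only). For Tead4 they are the middle 300 bases of the interval that the authors' test listed as more open in KO MEFs. All are on the plus strand of GRCm38.p6. Capitals mark matches on either strand to the strings searched, which were TGTGGTT for RUNX, ACATTCC for TEAD, TTGCNNAA for CEBP, TGANTCA for AP-1, GGGNGNGG for KLF, ATTGTT for SOX and ATGCAAAT for OCT.
Runx1 MEF-only, chr16:92719802-92720101: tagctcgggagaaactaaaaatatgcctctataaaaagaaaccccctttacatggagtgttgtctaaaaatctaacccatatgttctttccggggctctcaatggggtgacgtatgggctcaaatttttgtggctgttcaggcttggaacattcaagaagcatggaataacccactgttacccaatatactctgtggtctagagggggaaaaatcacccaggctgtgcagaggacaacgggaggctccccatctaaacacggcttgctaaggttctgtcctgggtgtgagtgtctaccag
Runx1 72 h-only, chr16:92757444-92757743: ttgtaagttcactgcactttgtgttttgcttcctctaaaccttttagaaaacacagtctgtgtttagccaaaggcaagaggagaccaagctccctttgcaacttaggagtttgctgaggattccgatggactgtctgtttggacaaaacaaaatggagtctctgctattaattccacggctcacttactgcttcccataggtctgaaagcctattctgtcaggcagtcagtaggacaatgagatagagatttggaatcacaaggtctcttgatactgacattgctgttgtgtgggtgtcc
Runx2 MEF-only, chr17:44645204-44645503: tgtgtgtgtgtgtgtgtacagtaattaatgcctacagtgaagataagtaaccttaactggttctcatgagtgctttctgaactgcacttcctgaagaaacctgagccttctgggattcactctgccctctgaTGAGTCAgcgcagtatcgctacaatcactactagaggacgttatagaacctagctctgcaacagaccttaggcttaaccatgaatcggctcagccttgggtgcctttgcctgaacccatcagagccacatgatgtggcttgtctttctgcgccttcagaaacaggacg
Runx2 72 h-only, chr17:44809576-44809875: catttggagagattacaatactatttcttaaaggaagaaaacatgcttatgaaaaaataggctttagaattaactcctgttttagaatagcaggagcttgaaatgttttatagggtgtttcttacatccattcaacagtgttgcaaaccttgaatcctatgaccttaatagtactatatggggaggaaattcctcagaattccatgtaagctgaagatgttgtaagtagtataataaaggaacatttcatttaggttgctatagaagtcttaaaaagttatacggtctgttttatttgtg
Tead4 listed in KO MEFs, chr6:128239802-128240101: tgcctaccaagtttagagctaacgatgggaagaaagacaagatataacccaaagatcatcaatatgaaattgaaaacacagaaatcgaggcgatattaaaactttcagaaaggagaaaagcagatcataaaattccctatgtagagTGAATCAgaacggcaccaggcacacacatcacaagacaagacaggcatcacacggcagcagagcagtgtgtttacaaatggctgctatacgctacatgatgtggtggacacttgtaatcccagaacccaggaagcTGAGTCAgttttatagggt
The Runx2 MEF-only window held 1 match, to AP-1, and the Tead4 window held 2, also to AP-1. The other 3 windows held none of the 7 strings, which says nothing of weaker or differently spelled sites.

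All 8 genes had, in all 4 groups, a peak in an interval that covered an annotated start site. Whether a group's own peak covered the start itself was not checked. Start sites of the partner and marker genes below were read in the same way. The highest start-site fold of a gene ran from 2.78 to 5.17 in MEF control, from 2.76 to 5.04 in MEF KO, from 2.15 to 3.84 in 72 h control and from 1.99 to 3.59 in 72 h KO. In control cells only the Tead2 start site passed the rule for a lower interval at 72 h, and in KO cells those of Runx2, Tead2 and Tead3 did. The KO calls of Runx2 and Tead3 are lost when ratios are taken relative to the median of all intervals.

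**Figure D1:**
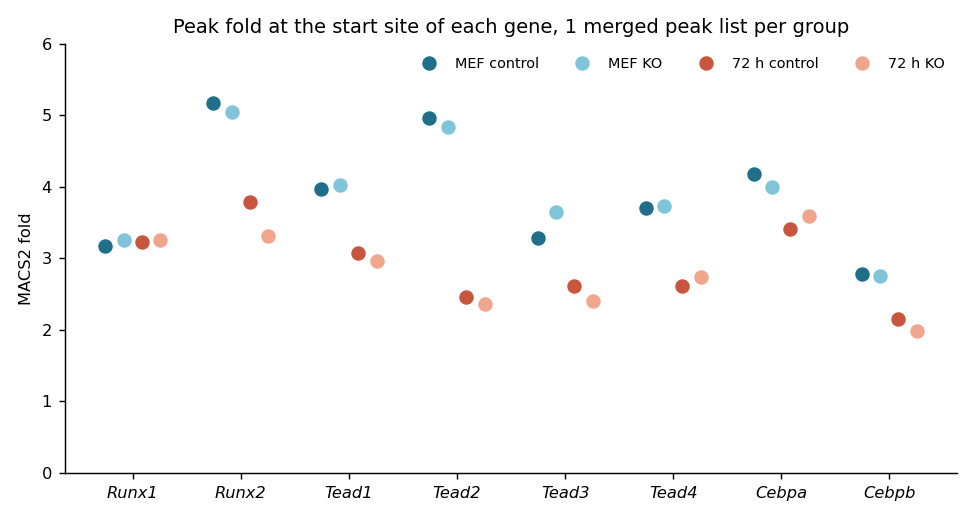
The vertical axis gives the MACS2 fold of 1 start-site interval of each gene, with 1 point for each of the 4 groups. It is the interval with the highest fold in MEF control among those with a peak in all 4 groups. For Runx1 this is the proximal promoter. Points have no error, since each group has 1 merged peak list. Tead2 has the widest gap between contexts, from 4.97 in MEF control to 2.46 in 72 h control, and the 4 points of Runx1 lie between 3.17 and 3.26.

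The 2 Runx1 promoters differed in these lists. The proximal promoter (chr16:92696509-92699054) had a fold of 3.17 in MEF control, 3.26 in MEF KO, 3.23 in 72 h control and 3.26 in 72 h KO. At the distal promoter, an interval of 218 bases (chr16:92825905-92826122) had a peak only in MEF KO, with a fold of 2.34, which is under the minimum of 3. An interval 2.2 kb upstream of the distal start (chr16:92827757-92828941) had folds of 4.0, 3.5, 3.3 and 3.9 in the same order. Another, 3.1 kb downstream (chr16:92822230-92823876), had 2.33 in MEF control, 2.61 in MEF KO and no peak at 72 h. The sequences of the 2 promoters, 250 bases before to 50 after the start as given by RefSeq on GRCm38.p6, are shown in the direction of transcription because 1 had a peak in every group and the other in 1 group.
Runx1 distal promoter, chr16:92826025-92826324, minus strand: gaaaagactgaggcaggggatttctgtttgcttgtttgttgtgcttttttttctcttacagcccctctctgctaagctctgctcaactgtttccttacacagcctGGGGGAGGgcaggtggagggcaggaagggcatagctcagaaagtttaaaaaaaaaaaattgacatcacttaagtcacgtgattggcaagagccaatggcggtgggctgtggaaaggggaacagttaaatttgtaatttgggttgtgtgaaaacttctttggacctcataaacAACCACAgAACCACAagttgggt
Runx1 proximal promoter, chr16:92697280-92697579, minus strand: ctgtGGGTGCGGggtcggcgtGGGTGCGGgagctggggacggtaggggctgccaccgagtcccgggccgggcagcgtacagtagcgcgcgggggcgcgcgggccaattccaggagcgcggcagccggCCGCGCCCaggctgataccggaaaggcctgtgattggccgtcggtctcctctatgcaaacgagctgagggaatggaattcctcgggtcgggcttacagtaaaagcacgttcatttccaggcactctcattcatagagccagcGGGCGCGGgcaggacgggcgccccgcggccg
The distal sequence held 2 RUNX strings and 1 KLF string, and had 2 CpG dinucleotides and 45.0% G or C. The proximal sequence held 4 KLF strings, 35 CpG dinucleotides and 69.0% G or C. Of the 32851 RefSeq promoters of that length, 5.27% held the RUNX string and 49.5% the KLF string.

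At Runx2 the distal start site (chr17:44813628-44816057) had a fold of 5.17 in MEF control and 5.04 in MEF KO, against 3.79 in 72 h control and 3.32 in 72 h KO. The proximal start site (chr17:44733923-44738768), a wide interval of 4846 bases, stood at 2.34, 2.33, 2.74 and 2.65 in the same order. The order of the contexts was thus opposite at the 2 promoters, and of these only the lower value of the distal start in KO cells passed the 1.5-fold rule. At the proximal start MEF control had 1 peak over 4801 bases and 72 h control 2 peaks over 3663 bases. The part of peak width in that difference was not tested.

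Tead2, the TEAD gene with the shortest gene body of the 4, had its start site (chr7:45215460-45217188) at 4.97 in MEF control, 4.84 in MEF KO, 2.46 in 72 h control and 2.37 in 72 h KO. The value in 72 h control was 2.02-fold lower than in MEF control. Its promoter sequence follows because it was the only main start site of the 8 genes that passed the rule in control cells.
Tead2 promoter, chr7:45215542-45215841, plus strand: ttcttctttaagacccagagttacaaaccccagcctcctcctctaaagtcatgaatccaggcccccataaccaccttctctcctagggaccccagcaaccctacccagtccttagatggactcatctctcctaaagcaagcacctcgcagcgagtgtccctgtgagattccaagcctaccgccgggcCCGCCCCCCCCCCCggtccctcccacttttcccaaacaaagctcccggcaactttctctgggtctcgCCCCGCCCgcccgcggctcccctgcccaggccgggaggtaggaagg
It held 6 matches to the KLF string on the reverse strand and none to the other strings. Of the 6, 5 overlap along 1 run of C, the first of them starting before a G that precedes the run.

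Among the other TEAD genes, the main start site of Tead1 (chr7:112678366-112681293) stood at 3.97, 4.03, 3.07 and 2.96 in MEF control, MEF KO, 72 h control and 72 h KO. An annotated internal start of Tead1, 11.7 kb downstream (chr7:112690288-112691742), went the other way, with 1.55 and 1.37 in MEFs and 3.84 and 3.52 at 72 h. This internal start was 1 of the 2 member intervals within 1 kb of a start site that passed as higher in control cells, and the other lay at the start of Dkkl1 near Tead2. The start of Tead3 (chr17:28349390-28351912) had folds of 3.28, 3.65, 2.62 and 2.41. That of Tead4 (chr6:128299495-128301962) had 3.71, 3.73, 2.61 and 2.74.

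The CEBP start sites showed the same order of contexts. Cebpa (chr7:35118053-35120925) had folds of 4.18 and 4.00 in MEF control and KO, and of 3.42 and 3.59 at 72 h. Cebpb (chr2:167687643-167693186), whose interval covered the whole gene, had 2.78 and 2.76 in MEFs and 2.15 and 1.99 at 72 h. Over all intervals with a peak in both control groups the median log2 ratio of 72 h over MEF was −0.22 (74537 intervals), and the start sites of Cebpa and Cebpb, at −0.29 and −0.37, lay close to it. With the highest start-site fold of each gene in each group, only Runx1 of the 8 genes had a log2 ratio above 0, at 0.02.

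The next question was how far the accessible elements around each gene differed between MEFs and cells after 72 h of factor expression. In control cells 48 of the 242 intervals (19.8%, 95% Clopper-Pearson interval 15.0 to 25.4) were lower at 72 h, against 20.5% of all 273256 intervals. Another 30 (12.4%, 8.52 to 17.2) were higher, against 17.1% of all intervals. The binomial intervals cover counting error only, and neighbouring intervals share a locus. The share of lower intervals was near the background. The background of higher intervals lay just inside the upper end of the members' interval, and with loci of 50 kb 36 of 338 intervals (10.7%) were higher against the same 17.1% of all. Whether the loci hold fewer higher intervals than the rest of the genome was not tested. At the 88 intervals with a peak in both contexts the median log2 ratio was −0.24. With ratios taken relative to the median of −0.22 over all intervals, 43 intervals were lower and 33 higher, or 17.8% and 13.6%, against 17.8% and 18.3% of all intervals. By locus this took Runx1 from 8 to 10 higher intervals, Runx2 from 17 to 16 lower, and Tead1 from 8 to 7 lower and from 9 to 10 higher.

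In KO cells, which share no library with the control cells, 51 intervals (21.1%, 16.1 to 26.8) were lower at 72 h against 19.5% of all, and 31 (12.8%, 8.87 to 17.7) were higher against 16.5% of all. Of the intervals called lower, 43 were called in both genotypes, which is 89.6% of the control calls and 84.3% of the KO calls, beside 84.9% and 89.0% over all intervals. Of those called higher, 29 were shared, 96.7% of the control and 93.5% of the KO calls, beside 85.5% and 89.0% over all intervals. The median log2 ratio was −0.23 at 90 intervals, beside −0.21 over all intervals.

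The 8 loci were not alike in how many of their MEF peaks were also peaks at 72 h. At the RUNX loci 60 of 84 intervals with a peak in MEF control (71.4%) had none in 72 h control, at the TEAD loci 23 of 79 (29.1%), and at the CEBP loci 4 of 12 (33.3%). Over all intervals the figure was 54.3%. These are counts over intervals of a few genes in 1 peak list per group, so the gap between families has no test.

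**Figure D2:**
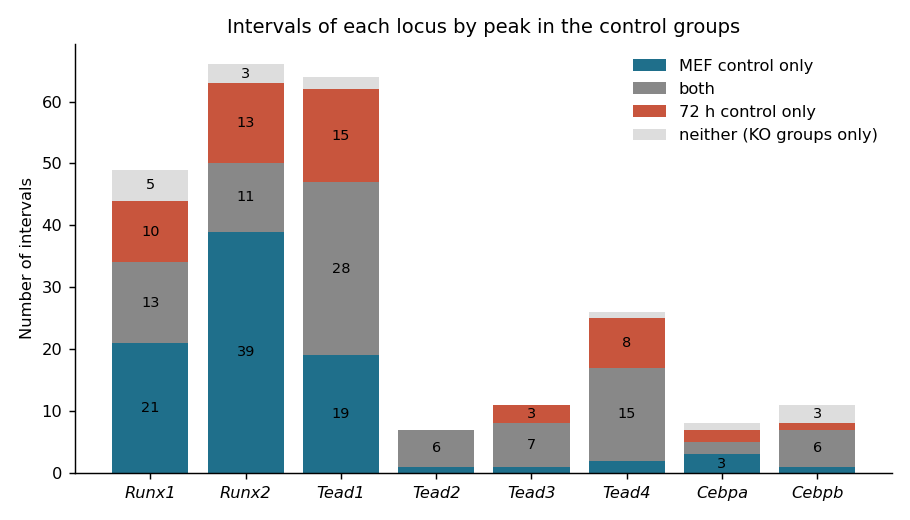
Each bar counts the intervals of 1 locus by whether they had a peak in MEF control only, in both control groups, in 72 h control only, or in neither. Runx2 has 39 MEF-only against 11 shared intervals, whereas Tead1 has 19 against 28 and Tead4 2 against 15.

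Runx2 (chr17:44495987-44814797, minus strand) had the most MEF peaks without a counterpart at 72 h. Of its 66 intervals 50 had a peak in MEF control, 49 in MEF KO, 24 in 72 h control and 27 in 72 h KO. Peaks covered 47.0 kb in MEF control and 19.6 kb in 72 h control. Of the 50 intervals of MEF control, 39 (78%) had no peak in 72 h control, and 37 of those 39 also had a peak in MEF KO. In all, 17 of the 66 Runx2 intervals were lower and 9 higher in control cells, beside 20.5% and 17.1% of all intervals.

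The Runx2 MEF-only interval with the highest fold (chr17:44645079-44645629, in an intron 169.4 kb downstream of the distal start) had a fold of 6.07 in MEF control and 6.32 in MEF KO, with −log10 q of 41.8 and 47.3. Its central sequence, shown above, held the AP-1 string. The other 38 MEF-only intervals had folds from 1.75 to 5.60, and 16 of the 39 reached 3. The map of Runx2 shows MEF-only peaks along much of the gene body rather than at 1 element.

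The opposite class at Runx2 was smaller but held the highest fold of the locus. Of 13 intervals with a peak in 72 h control and none in MEF control, the highest (chr17:44809376-44810076) lay 5.1 kb downstream of the distal start, in an intron of Runx2 and of the overlapping gene Supt3. It had a fold of 7.93 in 72 h control and 7.68 in 72 h KO, with −log10 q of 135.1 and 101.7, and no peak in either MEF group. The other 12 had folds from 2.01 to 6.59, and 9 of the 13 reached 3. Where both control groups had a peak, the smallest ratio was at chr17:44617894-44619708, with 3.83 in MEF control and 2.34 in 72 h control, a call that is lost when ratios are taken relative to the median of all intervals. The largest was at chr17:44770781-44771492, with 3.31 and 3.95, which did not pass the rule.

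Runx1 (chr16:92601466-92826149, minus strand) had 49 intervals, of which 34 had a peak in MEF control, 36 in MEF KO, 23 in 72 h control and 25 in 72 h KO. Peaks covered 35.9 kb in MEF control and 26.2 kb in 72 h control. Of the 34 intervals, 21 (61.8%) had no peak in 72 h control. In control cells 11 of the 49 intervals were lower and 8 higher, beside 20.5% and 17.1% of all intervals.

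The MEF-only interval of Runx1 with the highest fold (chr16:92719469-92720434, intronic) had 4.87 in MEF control and 4.77 in MEF KO. The other 20 had folds from 1.41 to 4.81. The 72 h-only interval with the highest fold (chr16:92757249-92757939), in the intron between the 2 promoters and 68.6 kb downstream of the distal start, reached 7.51 in 72 h control and 7.21 in 72 h KO. It was the highest fold of the locus in any group, and the other 9 intervals of its class ran from 2.09 to 4.29. Beyond the 3′ end of the gene, 244.1 kb from the distal start, an intergenic interval (chr16:92581592-92582554) stood at 6.39 in MEF control, 5.90 in MEF KO, 2.19 in 72 h control and 2.17 in 72 h KO, a 2.92-fold lower value in 72 h control than in MEF control. An intronic interval (chr16:92638766-92640084) went the other way, with 2.36, 1.96, 3.71 and 4.25. Runx1 and Runx2 thus each had a 72 h-only intronic peak with a higher fold than any MEF control peak of the same locus.

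**Figure D3:**
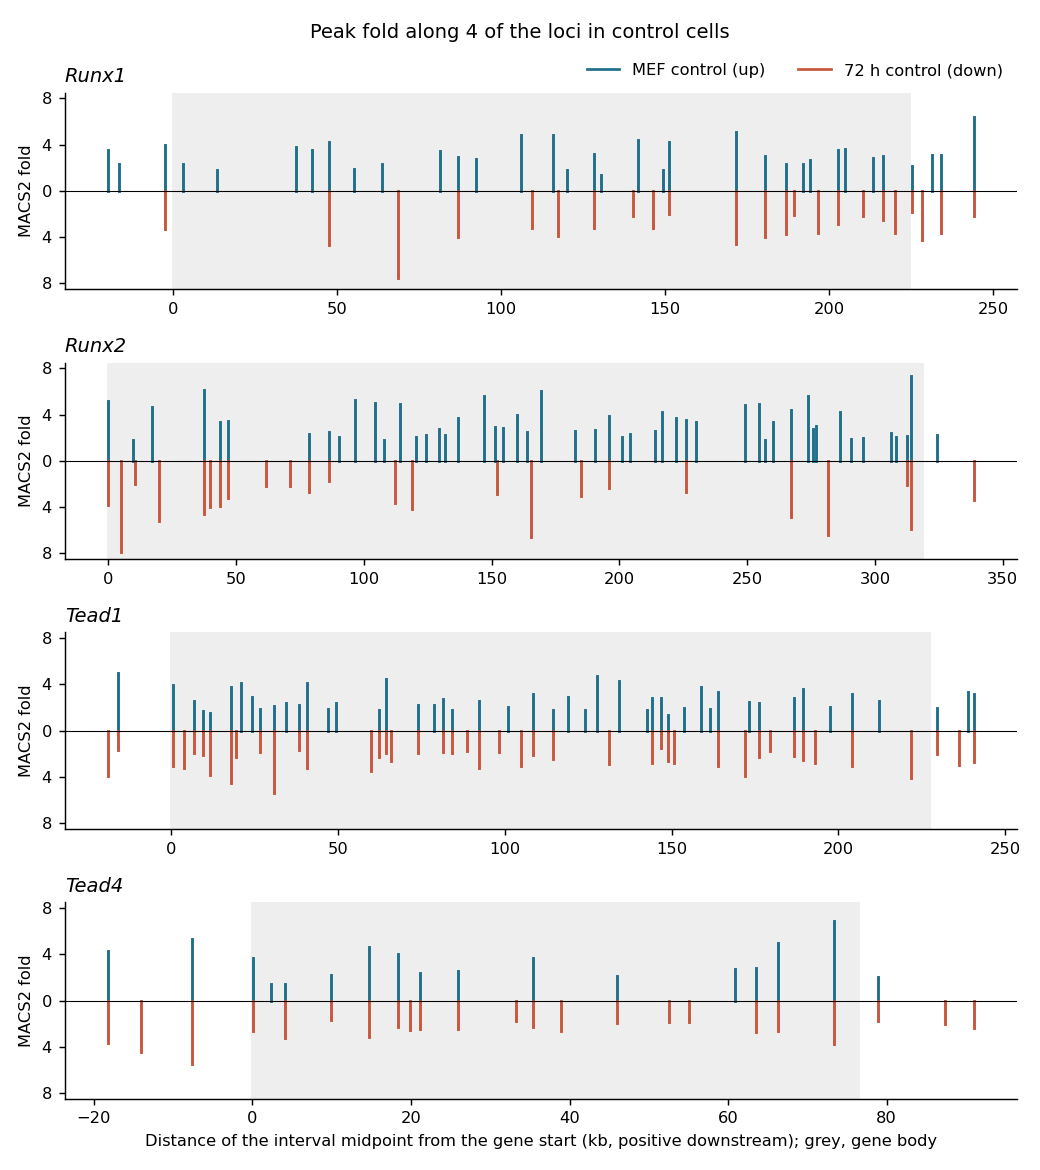
Each panel plots the MACS2 fold of the intervals of 1 locus against the distance of the interval midpoint from the gene start in kb, with MEF control upwards and 72 h control downwards, and the gene body in grey. Runx2 has 50 upward lines and 24 downward lines, the tallest downward line being 7.93 at 5.1 kb, and Tead4 has 17 and 23.

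Tead1 (chr7:112679318-112906807, plus strand), which encodes a TEAD factor common in fibroblasts and muscle, had 64 intervals, 47 with a peak in MEF control, 44 in MEF KO, 43 in 72 h control and 39 in 72 h KO. Of the 47, 19 (40.4%) had no peak in 72 h control. Yet peaks covered 55.4 kb in MEF control and 39.3 kb in 72 h control, so the covered length differed more than the number of intervals. In control cells 8 of the 64 intervals were lower and 9 higher, beside 20.5% and 17.1% of all intervals.

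Among Tead1 intervals with a peak in both control groups, the 2 largest contrasts lay within 31 kb of the start site on either side of it. Upstream, 16.1 kb from the start, an intergenic interval (chr7:112662449-112664024) had folds of 5.03 in MEF control, 5.18 in MEF KO, 1.72 in 72 h control and 1.84 in 72 h KO, a 2.93-fold lower value in control cells. Its −log10 q was 96.4 in MEF control and 1.65 in 72 h control. Downstream, in an intron at 30.7 kb, an interval (chr7:112708849-112711219) had 2.10, 2.28, 5.42 and 5.39 in the same order, which made it the highest fold of the locus. Its peak covered 2292 bases in MEF control and 749 in 72 h control, and the part of peak width in the contrast was not tested. Among intervals with a peak in 1 control group, the highest MEF-only fold was 4.73 (chr7:112806105-112807997, over an exon) and the highest 72 h-only fold was 4.05 (chr7:112900494-112901979, over an exon near the 3′ end).

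At Tead2 (chr7:45215753-45233644, plus strand) all 7 intervals had a peak in MEF control and 6 of them in 72 h control. The highest was at the start of the neighbouring gene Ccdc155, 11.1 kb upstream (chr7:45204230-45205081), with 8.41 in MEF control, 7.95 in MEF KO, 4.01 in 72 h control and 4.36 in 72 h KO. At the start of Dkkl1, 3.5 kb upstream (chr7:45211785-45212795), folds were 1.52 in MEF control and no peak in MEF KO, against 4.66 and 4.41 at 72 h. Which gene an interval between neighbours acts on was not measured.

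Tead3 (chr17:28331671-28350817, minus strand) had 11 intervals, 8 with a peak in MEF control and 10 in 72 h control. In control cells 3 of the 11 were lower and 0 higher, beside 20.5% and 17.1% of all intervals. Relative to the median of all intervals, the call at chr17:28327545-28334630 is lost and 2 remain lower. The lowest ratio was inside the gene, 9.9 kb from the start (chr17:28340070-28341710), with 4.03 in MEF control, 3.62 in MEF KO, 2.04 in 72 h control and 1.95 in 72 h KO. The highest fold of its window was at the start of Fance, with 5.09, 5.10, 4.75 and 4.52, and did not pass the rule.

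Tead4 (chr6:128224288-128300823, minus strand), known for its part in the trophoblast lineage, had more intervals with a peak at 72 h than in MEFs. Of 26 intervals 17 had a peak in MEF control, 17 in MEF KO and 23 in each 72 h group, and peaks covered 12.3 kb in MEF control and 23.0 kb in 72 h control. The 8 intervals with a peak in 72 h control and none in MEF control were mostly weak, with folds from 1.73 to 2.65 in 7 of them. The exception lay upstream of the gene (chr6:128314410-128315289), with 4.44 in 72 h control and 4.56 in 72 h KO.

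Of the 26 Tead4 intervals 4 were lower and 2 higher in 72 h control, beside 20.5% and 17.1% of all intervals. The 4 lower ones all had a peak there, and 3 remain lower relative to the median of all intervals, without chr6:128265091-128265784. The interval with the highest fold (chr6:128226770-128228158), over an exon near the 3′ end, had 6.93 in MEF control, 6.74 in MEF KO, 3.74 in 72 h control and 3.68 in 72 h KO. An intronic interval at 66.3 kb (chr6:128233929-128235042) had 4.96, 4.83, 2.65 and 2.74. Close to the start, at 4.1 kb (chr6:128296252-128297206), the order was opposite, with 1.46, 1.36, 3.20 and 2.87.

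The CEBP loci were short, with 8 intervals at Cebpa (chr7:35119293-35121928) and 11 at Cebpb (chr2:167688915-167690418), and few passed the rule. Downstream of Cebpa, an intergenic interval at 19.2 kb (chr7:35138066-35138881) had 3.18 in MEF control, 2.85 in MEF KO and no peak at 72 h. An interval at 21.4 kb (chr7:35140347-35141080) had no MEF peak, 3.31 in 72 h control and 3.82 in 72 h KO. At Cebpb, beside shares of 20.5% and 17.1% over all intervals, 2 of the 11 intervals were lower and 0 higher in control cells. They were upstream, in an intron of Tmem189 (chr2:167675060-167675729), with 3.32 and 3.05 in MEF control and KO, no peak in 72 h control and 2.15 in 72 h KO, and 9.2 kb downstream (chr2:167697765-167698418), with 3.74, 3.75, 2.25 and 2.50. The second call is lost when ratios are taken relative to the median of all intervals.

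Position and sequence described the lower and higher intervals further. Of the 242 intervals 26 lay within 1 kb of a start site of any gene (10.7%, against 7.33% of all intervals), and 3 of these were lower and 2 higher, or 11.5% and 7.69%, beside 17.7% and 5.17% of all such intervals. Of the 216 farther away, 45 were lower and 28 higher, or 20.8% and 13.0%, beside 20.7% and 18.1% of all such intervals.

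In the central 300 bases, the AP-1 string was present in 17 of the 48 lower intervals (35.4%), 5 of the 30 higher (16.7%) and 28 of the 164 others (17.1%). The corresponding shares of all intervals were 31.4%, 18.3% and 18.4%, so the AP-1 shares among members were close to those of the whole set. The KLF string was present in 15 lower (31.2%) and 7 higher (23.3%) members, beside 21.7% and 32.2% of all, which is the opposite order. The SOX string was present in 5 lower (10.4%) and 9 higher (30.0%) members, beside 15.8% and 27.6% of all. The families' own strings did not stand out over the 8 loci: RUNX was in 8.26% of the 242 against 9.35% of all intervals, TEAD in 7.02% against 6.11%, and CEBP in 10.3% against 13.4%. A string match is a description and not a binding site.

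Base composition differed a little from the whole set. The median G or C content of the central 300 bases was 46.7% for MEF-only members and 48.8% for 72 h-only members, beside 44.0% for each of these classes among all intervals. Repeats masked in the reference covered a median of 12.52% of a member interval and 14.1% of all intervals.

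Partners of the 3 families, from lists of named genes, were read at their start sites. All 3 RUNX family and partner genes (Runx3, Cbfb and Runx1t1) had a peak in each group and none passed the rule between control groups. Cbfb, the common partner, stood at 4.57 in MEF control and 4.46 in 72 h control. Of 13 TEAD coactivators, Hippo kinases and known targets, 12 had a peak and Vgll1 had none. Among them 1 was lower, Axl, which encodes a receptor kinase, with 5.31 in MEF control and 3.34 in 72 h control, and 1 was higher, the coactivator gene Vgll3, with 3.66 and 5.62. The call of Axl is lost when ratios are taken relative to the median of all intervals. The coactivator genes Yap1 (4.49 and 4.29) and Wwtr1 (4.01 and 3.37) did not pass. Of 5 further CEBP family genes 4 had a peak and Cebpe had none, and 0 passed.

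Markers of the cell types in the libraries were read in the same way. All 12 fibroblast markers had a start-site peak in all 4 groups, and Fap alone was lower, with 5.46 in MEF control and 2.29 in 72 h control. Epithelial markers had peaks at 7 of 7 start sites in each group, with Cdh1 and Krt8 lower and Krt18 higher in 72 h control. Of 7 pluripotency markers 4 had a peak in MEF control and 5 in 72 h control, and Zfp42 had none in MEF control and 8.75 in 72 h control. Lin28a was also higher (2.33 and 3.50), whereas Esrrb was lower (4.36 and 2.74). Relative to the median of all intervals, the calls of Cdh1, Krt8 and Esrrb are lost, and Pou5f1, which encodes OCT4 (2.23 and 3.03), becomes higher. Nanog and Dppa5a had no peak in any group. Since RUNX1 marks blood-forming cells, blood and endothelial genes were read as well: Ptprc, Spi1, Pecam1, Cdh5 and Tie1 had no peak in any group, whereas Cd34 (5.13 in MEF control) and Kdr (5.59) had. The 3 skeletal muscle markers had none. Gata1 and Itgam had peaks only at 72 h, with 2.51 and 2.76 in 72 h control and 3.55 and 2.63 in 72 h KO. Only the Gata1 fold in 72 h KO reaches the minimum of 3. What part these genes have in the RUNX results was not tested.

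The study then asked where loss of Zfp266 alters accessibility. In MEFs 163 of the 242 intervals had a peak in both genotypes, with a median log2 ratio of KO over control of −0.01, beside −0.03 over all intervals. None of the 242 was lower in KO, where 0.224% of all intervals were, and 1 was higher, where 0.135% of all were. An upper limit of 1.51% (95% Clopper-Pearson) goes with the count of 0. The 1 higher interval was in an intron of Tead4, 9.9 kb from the start (chr6:128289971-128291877), with 2.20 in MEF control and 3.65 in MEF KO, and 1.71 and 1.75 at 72 h. It was not among the intervals listed by the authors' test on the single libraries. Where a peak counted only if it covered at least 50% of its interval, this call was lost and 1 other Tead4 interval (chr6:128239342-128240562) was higher, against 1.04% of all. Its MEF control peak, with a fold of 2.76 beside 3.31 in MEF KO, was left out for covering less. This second interval is the one listed by the authors' test and described below.

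At 72 h 130 intervals had a peak in both genotypes and the median log2 ratio was 0.01, beside −0.02 over all intervals. Here 0 intervals were lower, against 0.312% of all, and 0 were higher, against 0.283% of all. With the required cover of 50%, 2 were lower and 2 higher (0.826% each), against 0.991% and 0.988% of all. They lay at Tead1 (chr7:112769853-112773273) and Tead4 (chr6:128285562-128286778), both lower, and at Runx2 (chr17:44546316-44548703 and chr17:44695340-44696591), both higher. Each of the 4 had a peak in both genotypes, and the peak of 1 genotype was left out for covering less. Folds before that were 3.27 in control and 3.33 in KO at Tead1, and 3.16 and 3.91 at Tead4. At Runx2 they were 4.85 and 4.44, and 4.21 and 3.86, in the order above. Each of the 4 calls thus ran opposite to its folds and came only from the left-out peak. With a fold of at least 3 in 1 genotype, log2 ratios ran from −0.37 (Runx1, chr16:92591351-92592840, 3.66 in control and 2.83 in KO) to 0.46 (Cebpb, chr2:167672457-167672992, 2.65 and 3.65). Intervals with a peak in only 1 genotype were weak, with a highest fold of 2.69 in MEFs and 2.78 at 72 h. Under the same minimum fold, the largest ratio at Runx2 was at an intronic interval 20.1 kb from the distal start (chr17:44794422-44794941), with 5.18 in control and 6.09 in KO, a log2 ratio of 0.23.

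**Figure D4:**
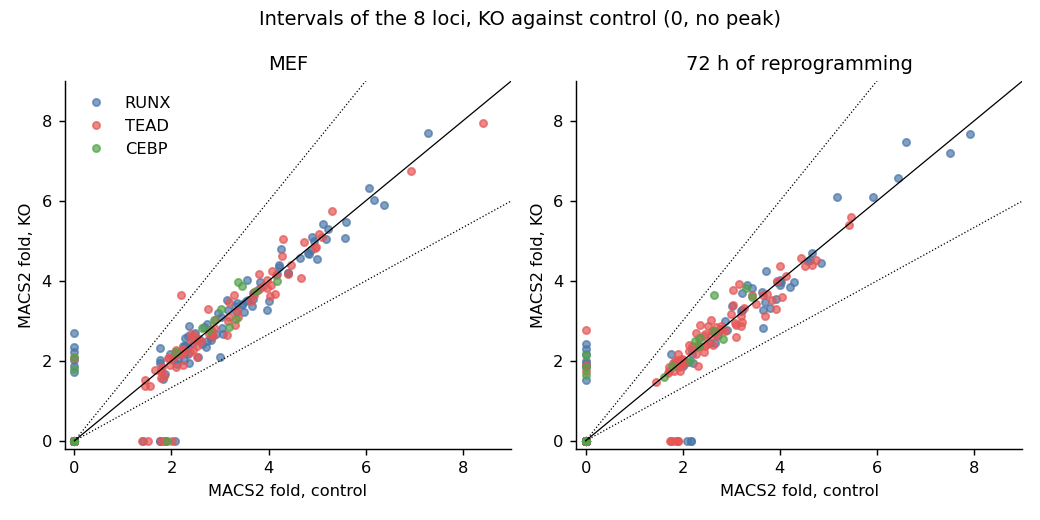
Each point is 1 interval of the 8 loci, with its MACS2 fold in control on the horizontal and in KO on the vertical axis, in MEFs on the left and at 72 h on the right; 0 means no peak, the solid line is equality and the dotted lines are 1.5-fold. Most points lie along the line of equality, and 1 TEAD point in MEFs, at 2.20 and 3.65, lies above the upper dotted line with a fold over 3.

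Counts for single libraries were available only at intervals that passed an adjusted p of 0.05 in the authors' test. That test listed 479 intervals as higher in KO MEFs, 0.175% of the 273256, and 1 of them was among the 242. It listed 1522 as higher in KO at 72 h, 0.557%, and 0 were among the 242. The count of 1 is too small to set against the background share.

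The listed interval lay in an intron of Tead4, 60.9 kb downstream of the start (chr6:128239342-128240562). Its normalised read count was 55.4, 44.9 and 41.1 in the 3 MEF control libraries and 123.8, 112.5 and 155.5 in the 3 MEF KO libraries. Every KO library was above every control library, as selection on these libraries makes likely. The means were 47.1 ± 7.38 and 130.6 ± 22.3 (SD, n = 3 each), from 43 to 164 raw reads per library. Retested with edgeR's quasi-likelihood test, the log2 ratio of KO over control was 1.43 (SE 0.151, Benjamini-Hochberg adjusted p = 2.55e-17 over 273256 intervals). The list was chosen on the same libraries, so the retest is not independent evidence. Scaling on the listed intervals alone, of which nearly all were higher in KO, gave 0.38 with an adjusted p of 1, and the call was lost.

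**Figure D5:**
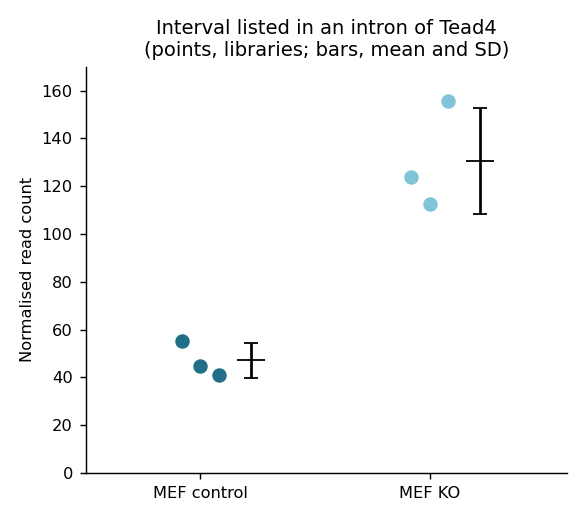
Normalised read counts of the Tead4 interval are plotted for each of the 6 MEF libraries as points, with the mean and SD of each group as bars. The 3 KO libraries lie between 112.5 and 155.5 and the 3 control libraries between 41.1 and 55.4.

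In the peak lists this interval had a fold of 2.76 in MEF control and 3.31 in MEF KO and no peak at 72 h. Over the 6 reprogramming libraries its mean normalised count was 49.1, worked out from the authors' mean of all 12 libraries, which is near the MEF control mean. Masked repeats made up 26.3% of its length, beside a median of 12.52% for the 242 intervals, and the window printed above held 2 AP-1 strings. No interval of the other 7 loci was listed in either context. With the loci extended to 50 kb, 1 interval listed at 72 h came in, upstream of Cebpa (chr7:35084293-35085225), with normalised counts of 121.8, 108.9 and 95.3 in control and 355.0, 326.0 and 327.1 in KO. It lies outside the 20 kb limit and is not counted among the members.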

How the data were processed

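Omni-ATAC-seq libraries of 4 groups were used, grouped by their titles, with 3 libraries each; that these came from separate cultures is not stated in the labels, so p-values measure the spread between these libraries, which may be technical. The authors aligned reads to GRCm38.p6 with BWA, filtered out reads that were duplicated, mitochondrial, in blacklisted regions or not properly paired, and used MACS2 to call broad peaks. The deposited peak lists, 1 per group from merged libraries, give each peak's fold, a ratio over background, and its −log10 q, of which the lowest was 1. The deposited tables give, for intervals with an adjusted p under 0.05, raw read counts and a normalised signal (each count over the library's DESeq2 size factor), with the authors' own fold changes and p-values, which were not used. The reads of a library within listed intervals ranged from 33936 to 324141 and are not its depth, which was not used here.

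The 4 lists were merged to 273256 intervals in Python 3.11.15. Genes came from GENCODE M21 and promoters from RefSeq, where 6 of the 8 genes matched (none for Tead1 and Tead4). Of 661623 peaks, 0 ran past a chromosome end. Starts are counted from 1. The retest of listed intervals used edgeR 4.0.16 (quasi-likelihood, two-sided) in R 4.3.3, with the size factors recovered as raw over normalised count, and with DESeq2 1.42.0. Tested on simulated data with 200 of 480 MEF intervals changed by 1.5 on the log2 scale, edgeR recovered 96.0% with 0 false calls. The simulation used equal numbers up and down, a set dispersion and known size factors. In the real list 477 of the 478 MEF intervals called by edgeR were higher in KO. The simulation thus does not cover selection of the list or its scaling. Text names the start-site intervals, the interval with the highest fold, the largest and smallest ratios between contexts and genotypes, the highest interval of each 1-context class and all listed intervals of a locus. Intervals beside the distal Runx1 start are named as well. The members, gene lists and rules were chosen with earlier results of these data known.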

Additional observations from a re-analysis of the deposited data

How the results depend on the processing

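Limits on the fold decided the shares most. Without a minimum fold, 42.6% of the member intervals were lower and 24.0% higher at 72 h in control cells (39.2% and 36.6% of all intervals), and 44.2% and 25.2% in KO cells (38.1% and 34.8% of all). With a minimum of 5 these were 3.72% and 2.48% in control cells (6.20% and 4.94% of all) and 4.55% and 2.48% in KO cells (5.74% and 4.59% of all). A ratio of 2 left 14.9% lower in KO cells (15.4% of all). For KO against control, dropping the minimum gave 4.96% lower and 4.13% higher in MEFs (4.85% and 3.70% of all), and 4.13% lower and 5.79% higher at 72 h (7.35% and 5.07% of all). The 1 higher interval in MEFs was lost (0%) with a ratio of 2 and with a minimum fold of 5. Centring took the median log2 ratio of 72 h over MEF from −0.24 to −0.02 in control cells and from −0.23 to −0.02 in KO cells. Stricter q limits, length-weighted folds, gene bodies alone and loci of 50 kb left every share within the binomial interval of its planned value. Required cover of 50% did so too, but changed the calls between genotypes: 0 members were lower and 1 higher in MEFs (0.583% and 1.04% of all intervals), the latter not the interval of the planned rule, and 2 were lower and 2 higher at 72 h (0.991% and 0.988% of all). Each of these member calls came from leaving out the peak of 1 genotype. Of the listed intervals, the Tead4 one was lost (0 member calls) with TMM scaling over the list, and loci of 50 kb added 1 at 72 h. Without 1 library at a time its log2 ratio ran from 1.30 to 1.58, the highest adjusted p being 5.56e-10, and DESeq2 gave 1.45 (adjusted p = 2.05e-10). With a replicate block it was 1.44 (adjusted p = 5.09e-20), and the member calls were 1 and 0 as before. Same-numbered control and KO libraries correlated at 0.21, 0.14 and 0.04 in MEFs and 0.04, 0.10 and 0.08 at 72 h, so the numbers were not taken to pair libraries; every 72 h library, and every MEF library but KO replicate 3, correlated best with its own number. Peak lists were merged over libraries, so no share could be recomputed without a library. No test of a KO effect that differs by context was possible, since no member interval was listed in both. The absence of depth for the peak lists limits what a missing peak can show.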
